A study of Mus musculus with 24 samples.

Results

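The comparison set the cortex of 12 mice that lacked Trem2 or Plcg2 against the cortex of 12 mice labelled wild type or heterozygous for the Plcg2 knockout. Libraries were assigned by the genotype in their labels, and together they make up 24 of the 24 libraries of the study. The knockout state held 6 Trem2 knockouts (Trem2KO, 3 males and 3 females) and 6 homozygous Plcg2 knockouts (Plcg2KO, 4 males and 2 females). The control state held 6 mice that were wild type at both genes (WT) and 6 heterozygous Plcg2 knockouts (Plcg2HET), each with 3 males and 3 females. All 24 mice were 7.5 months old and carried 5xFAD, human transgenes with familial Alzheimer's disease mutations that lead to amyloid plaques, so every value below comes from cortex with the transgenes. The labels do not say how the knockout alleles were made. Polyadenylated RNA of bulk cortex was sequenced from 100 ng of RNA with the KAPA mRNA HyperPrep kit, and mice are named by genotype, sex letter and number.

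TREM2 is a receptor for lipids and apolipoproteins on microglia, the macrophages that reside in the brain. It signals through the adaptor TYROBP, whose ITAM motifs recruit the kinase SYK, and PLCG2 is a phospholipase below SYK that releases calcium and diacylglycerol signals. Near amyloid plaques microglia lower homeostatic genes and raise a set known as the disease-associated microglia (DAM) programme, whose later stage is known to need TREM2. The pooled comparison asks which expression differences the losses of receptor and phospholipase have in common, and the comparisons of single genotypes ask whether each of the 4 groups agrees.

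Total counts ran from 49422827 to 82990818 in the knockout libraries and from 36272966 to 71319535 in the controls. Among the controls, 3 libraries stood apart by their share of Rn45s, a ribosomal RNA precursor: Plcg2HET F3 with 29.0%, WT F1 with 9.59% and Plcg2HET F1 with 5.29% of counts, against at most 3.50% elsewhere. Gene-wise deviations of a library from the mean were also ranked against GC content. That rank correlation ran from -0.58 to -0.29 in Plcg2KO, from -0.08 to 0.52 in Trem2KO, from -0.51 to 0.27 in WT and from -0.46 to 0.56 in Plcg2HET. Within Plcg2HET it was 0.28 to 0.56 in M1, M2, F1 and F3 and -0.46 and -0.38 in M3 and F2, and the first principal component of all genes parted the same libraries (28.1 to 59.9 against -20.7 and -5.46). Without the 3 Rn45s-rich libraries, 85 of the 98 genes chosen by the naming rule kept their pooled result, called or not called. The 13 that lost a call were Mcm3, Zc3h13, Gpt, Cldn5, Mal, Foxo1, Etnppl, Lhfpl3, Slc17a6, Luzp2, Calr, Thy1 and Bfsp2, in a fit with fewer samples.

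The targeted genes were read first as a check of the knockout labels. Plcg2, on chromosome 8, ran from 0.739 to 1.20 CPM (counts scaled to library size with TMM factors) in Plcg2KO with a median of 1.0, and from 9.32 to 14.7 CPM in Trem2KO, 7.73 to 15.2 CPM in WT and 5.89 to 19.8 CPM in Plcg2HET. The Plcg2KO libraries lay below all others, and the 3 other genotypes overlapped. Plcg2HET held WT levels of Plcg2 (log2 difference 0.02, SE 0.17, edgeR adjusted p = 0.951), so the level of Plcg2 does not check the heterozygous label. Pooling a group at the control level with one far below it gave Plcg2 a log2 fold change of -0.91 (SE 0.47, edgeR adjusted p = 0.214), so Plcg2 was not called in the pooled comparison. Trem2, on chromosome 17, ran from 4.59 to 7.45 CPM in Trem2KO and from 14.1 to 28.6 CPM in Plcg2KO, with medians of 5.97 and 17.9 CPM. The controls held 46.5 to 139 CPM of Trem2 (median 82.9), above all 12 knockout libraries (log2 fold change -2.67, SE 0.28, edgeR adjusted p = 3.62e-08).

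Cortex lacking either gene held less RNA of microglial genes, and the decreases were larger than the increases. Of 16316 genes tested, 2289 (14%) were called in the pooled comparison by edgeR's quasi-likelihood test at a Benjamini-Hochberg adjusted p under 0.05. Of these, 1356 (8.31% of tested genes) were lower and 933 (5.72%) higher in the knockouts. Among called genes, 256 genes were lower by over 2-fold and 10 were higher by over 2-fold. Without the 3 Rn45s-rich control libraries, a fit with fewer samples, 893 genes were lower and 516 higher. In bulk cortex, fewer cells of a type and less RNA of a gene per cell cannot be told apart.

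Agreement between groups was read from 4 single comparisons, each knockout against each control group, in 1 model with shared spread. Trem2KO differed from WT in 2565 genes (15.7%, with 7.56% higher and 8.16% lower) and from Plcg2HET in 2537 (15.5%, with 6.27% higher and 9.28% lower). Plcg2KO differed from WT in 2133 genes (13.1%, with 5.44% higher and 7.63% lower) and from Plcg2HET in 5746 (35.2%, with 15% higher and 20.2% lower). The 4 comparisons called 458 genes the same way (2.81%). Each of the 4 called 370 genes lower (2.27% of tested genes, 27.3% of the pooled decreases) and 88 genes higher (0.539%, and 9.43% of the pooled increases). The lowest control library lay above the highest knockout library for 87 genes (0.533%), and the reverse held for 19 genes (0.116%), together 0.65% of tested genes. Of the 256 decreases over 2-fold, 183 (71.5%) were lower in all 4 comparisons, against 2 of the 10 increases of that size. Among the pooled decreases, 555 were called in exactly 2 of the 4 comparisons, 261 in 3, 135 in 1 and 35 in none. The 4 comparisons share control or knockout libraries in pairs, so these counts do not come from independent tests.

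The 12 largest decreases among well-expressed genes (average log2 CPM of at least 1) that fell in all 4 comparisons included DAM genes, chemokines and MHC class II genes (Trem2 itself was not counted). Itgax encodes CD11c, the integrin chain that marks plaque-associated microglia, and ran from 13.3 to 42.2 CPM in the controls (median 26.2) and from 0.232 to 3.93 CPM in the knockouts (median 1.52). No knockout library reached the lowest control, and the pooled log2 fold change was -3.81 (SE 0.24, edgeR adjusted p = 6.12e-12). Cst7, the cysteine protease inhibitor cystatin F, ran from 26.4 to 90.7 CPM in the controls and from 0.820 to 10.4 CPM in the knockouts (log2 fold change -3.55, SE 0.23, edgeR adjusted p = 6.12e-12). Clec7a, the beta-glucan receptor dectin-1, which also signals through SYK, stood at 16.0 to 64.8 CPM against 1.12 to 9.20 CPM (log2 fold change -2.87, SE 0.20, edgeR adjusted p = 3.01e-11). Both genes were lower in every knockout library than in any control library, with medians of 54.3 and 3.49 CPM for Cst7 and of 32.6 and 4.14 CPM for Clec7a.

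**Figure D1:**
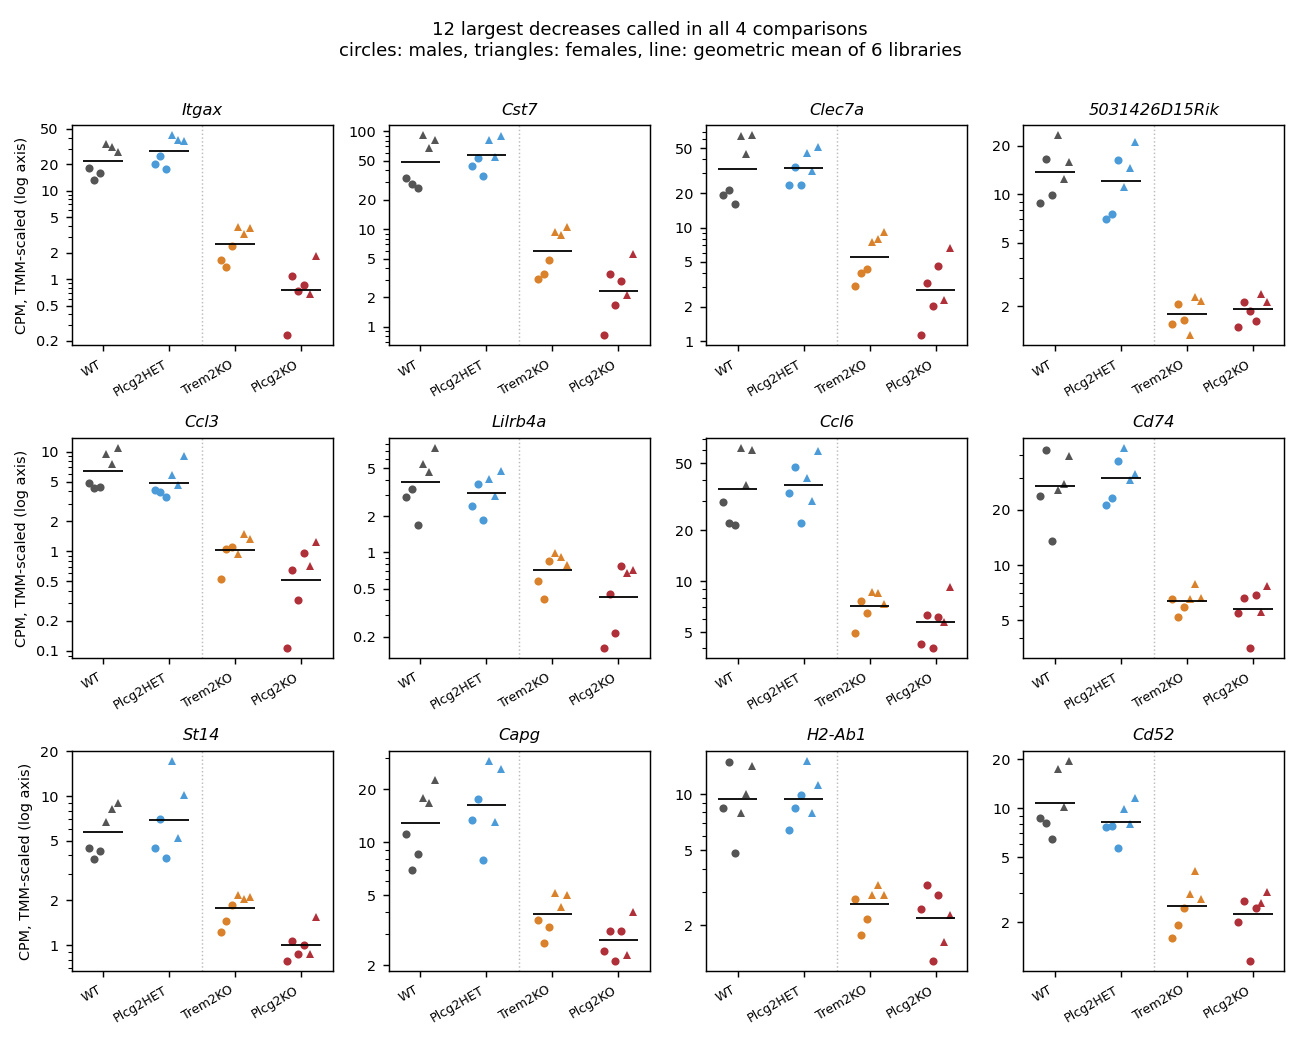
Each panel shows 1 of the 12 largest decreases called in all 4 comparisons, in CPM on a log axis, for the 6 libraries of each genotype (circles, males; triangles, females; line, geometric mean). In every panel the 12 knockout libraries lie below the 12 controls, and Itgax and Cst7 are lower in Plcg2KO than in Trem2KO.

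The chemokine genes Ccl3 and Ccl6, which attract leukocytes, fell by 2.7 and 2.48 on the log2 scale. Ccl3 ran from 3.48 to 10.8 CPM in the controls and from 0.107 to 1.5 CPM in the knockouts, and Ccl6 from 21.5 to 61.3 CPM and from 4.02 to 9.28 CPM. Cd74, the MHC class II invariant chain, held 13.5 to 43.5 CPM in the controls and 3.52 to 7.88 CPM in the knockouts, and H2-Ab1, an MHC class II beta chain, 4.82 to 15.0 CPM and 1.29 to 3.27 CPM (log2 fold changes of -2.25 and -1.98). The remaining 5 genes were the inhibitory receptor gene Lilrb4a (-2.49), the surface glycoprotein gene Cd52 (-1.94), the actin-capping gene Capg (-2.09), the membrane protease gene St14 (-2.19) and 5031426D15Rik (-2.80), whose span overlaps Celf2. In each of the 12 genes, the highest knockout library lay below the lowest control library.

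Promoter sequence is shown for 6 of these genes, from the RefSeq promoter table (GRCm38.p6, the mm10 build), because they moved together in every comparison. 5031426D15Rik, Lilrb4a and St14 had no entry there, and Cd74, which fell more than Capg, was left out of the display. Each line gives the 250 bases before the annotated start, 5′ to 3′ on the gene's strand: Itgax chr7:128129300-128129549 (plus), Cst7 chr2:150570165-150570414 (plus), Clec7a chr6:129472780-129473029 (minus), Ccl3 chr11:83649379-83649628 (minus), Ccl6 chr11:83593088-83593337 (minus) and Capg chr6:72549397-72549646 (plus). Capitals mark matches on either strand to GAGGAA, a core bound by the myeloid factor PU.1, or to TGANTCA, the AP-1 type element. A match is given as letters found and not as a bound site.
Itgax: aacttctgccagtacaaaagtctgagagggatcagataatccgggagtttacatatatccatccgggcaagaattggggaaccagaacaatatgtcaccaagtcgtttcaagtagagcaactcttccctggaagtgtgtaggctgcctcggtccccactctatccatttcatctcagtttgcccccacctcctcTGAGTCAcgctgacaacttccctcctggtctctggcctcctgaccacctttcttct
Cst7: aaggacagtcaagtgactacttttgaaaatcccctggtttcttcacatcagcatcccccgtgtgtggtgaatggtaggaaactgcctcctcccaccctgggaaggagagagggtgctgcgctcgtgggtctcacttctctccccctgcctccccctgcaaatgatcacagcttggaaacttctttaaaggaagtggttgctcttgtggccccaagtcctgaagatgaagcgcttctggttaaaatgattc
Clec7a: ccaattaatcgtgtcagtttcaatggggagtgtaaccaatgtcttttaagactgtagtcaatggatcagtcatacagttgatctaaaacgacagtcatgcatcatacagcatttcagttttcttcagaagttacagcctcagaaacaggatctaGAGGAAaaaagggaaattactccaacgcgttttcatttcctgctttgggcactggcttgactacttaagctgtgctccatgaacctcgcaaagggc
Ccl3: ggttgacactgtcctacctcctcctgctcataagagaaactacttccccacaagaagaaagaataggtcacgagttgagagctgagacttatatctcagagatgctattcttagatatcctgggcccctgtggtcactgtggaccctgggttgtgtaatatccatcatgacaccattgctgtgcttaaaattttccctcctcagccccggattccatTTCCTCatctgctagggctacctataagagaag
Ccl6: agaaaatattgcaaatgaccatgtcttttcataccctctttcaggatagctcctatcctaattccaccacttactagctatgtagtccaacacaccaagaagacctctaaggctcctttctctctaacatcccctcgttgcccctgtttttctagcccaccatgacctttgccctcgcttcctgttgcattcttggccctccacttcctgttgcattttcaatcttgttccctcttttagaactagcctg
Capg: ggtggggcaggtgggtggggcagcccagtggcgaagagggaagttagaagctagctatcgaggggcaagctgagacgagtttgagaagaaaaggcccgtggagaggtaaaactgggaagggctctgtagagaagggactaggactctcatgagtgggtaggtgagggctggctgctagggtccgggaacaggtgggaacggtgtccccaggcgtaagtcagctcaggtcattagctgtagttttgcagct

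The Itgax promoter held 1 TGANTCA match, 49 bases before the start, Clec7a 1 GAGGAA match 90 bases before it, and Ccl3 1 GAGGAA match on the opposite strand 27 bases before it. The windows of Cst7, Ccl6 and Capg held neither set of letters. Among the genes with a promoter in the table, GAGGAA was found in 95 of 267 genes lower in all 4 comparisons (35.6%), in 16 of 59 genes higher in all 4 (27.1%) and in 2725 of 12162 tested genes (22.4%). TGANTCA was found in 7.87%, 1.69% and 4.39% of the same promoters, and CACGTG, an E-box searched in the same way, in 3%, 11.9% and 8.16%. These shares are descriptions, with no test.

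Of 22 pan-microglial genes, 22 were lower in the pooled comparison, 20 of them in all 4 single comparisons, with a median log2 fold change of -0.99 against -0.01 over all tested genes. Tyrobp, the adaptor of TREM2, ran from 31.5 to 85.7 CPM in the controls and from 12.4 to 28.1 CPM in the knockouts (log2 fold change -1.41, SE 0.11, edgeR adjusted p = 2.18e-10). Irf8, a transcription factor of the myeloid lineage, fell by 1.39, C1qb, a chain of complement C1q, by 1.15, and Cx3cr1, the fractalkine receptor, by 0.65. The genes of the list without a call in all 4 were Csf1r, the CSF1 receptor, and Itgb5, whose log2 fold changes in Trem2KO against WT were -0.30 and -0.40.

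Homeostatic microglial genes were lower in part. Of 22 genes, 13 were lower and 0 higher, with a median log2 fold change of -0.47, and 8 were lower in all 4 comparisons. Olfml3 fell by 1.14, Selplg by 0.78 and Slco2b1, a transporter, by 0.68. P2ry12, the ADP receptor of surveying microglia, ran from 29.4 to 53.1 CPM in the controls and from 23.4 to 54.5 CPM in the knockouts (log2 fold change -0.11, SE 0.12, edgeR adjusted p = 0.612). The 2 knockouts differed in P2ry12, with 23.4 to 33.5 CPM in Trem2KO and 33.9 to 54.5 CPM in Plcg2KO (log2 difference 0.64, called by edgeR). Mertk, a phagocytic receptor, was likewise not called in the pooled comparison (0.03) and was higher in Plcg2KO than in Trem2KO (0.47).

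The balance between both lists was then set per library, as the mean log2(CPM + 0.5) of the homeostatic genes minus that of the pan-microglial genes. The pan-microglial mean was 5.08 to 6.10 in the controls and 4.08 to 5.01 in the knockouts. The balance ran from -0.59 to -0.08 in the controls and from -0.04 to 0.59 in the knockouts, so neither measure overlapped between states. Its median was -0.31 in WT, -0.30 in Plcg2HET, 0.09 in Trem2KO and 0.38 in Plcg2KO. The pan-microglial mean enters both measures, so their relation across libraries is not tested. Of the 22 homeostatic genes, 9 were not called, among them Mef2c, Bin1 and Cst3. In bulk cortex, RNA from other cell types enters these means. Genes that do not fall raise the balance when the pan-microglial mean falls, so the balance is no measure of state per microglial cell. The TREM2-dependent DAM mean minus the pan-microglial mean has the same limit. It overlapped between states, with medians of -0.72 in the controls and -0.76 in the knockouts.

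**Figure D2:**
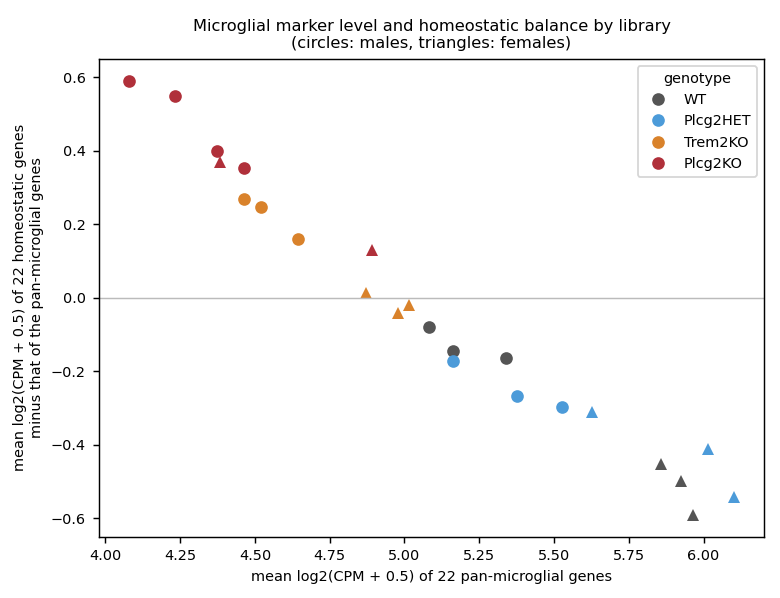
Each point is 1 library, with the mean log2(CPM + 0.5) of 22 pan-microglial genes on the horizontal axis and the homeostatic mean minus that mean on the vertical axis (circles, males; triangles, females). The knockouts lie at or below 5.01 on the horizontal axis and at or above -0.04 on the vertical axis, and the controls lie on the other side of both values. RNA from other cell types enters both means, so the vertical axis is no measure per microglial cell.

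DAM genes fell in both of their stages. Of the 8 genes of the TREM2-independent stage, 6 were lower, among them Ctsz and Ctsd, lysosomal cathepsins (-1.15 and -1.05), while Apoe (-0.33, edgeR adjusted p = 0.0587) and Fth1 (0.04) were not called. Of the 28 genes of the TREM2-dependent stage, 21 were lower and Timp2, a metalloprotease inhibitor, was higher (0.28). Of the lower genes, 14 were lower in all 4 comparisons, and Ank, Serpine2, Cadm1, Hif1a, Fabp5 and Apoc1 were not called. Lpl, lipoprotein lipase, was lower against WT (-1.02 in Trem2KO, -0.84 in Plcg2KO) and not called against Plcg2HET (-0.24 and -0.07). Lgals3, galectin-3, was lower in Plcg2KO against each control group (-1.86 and -1.79) and not called in Trem2KO (-0.80 and -0.74).

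Signalling genes below TREM2 and related receptors were mostly lower as well: 29 of 37, with 0 higher and a median log2 fold change of -0.62, where 8.31% of all tested genes were lower. The Fc receptor gene Fcgr2b fell by 1.23, Plek, encoding pleckstrin, by 1.21, Vav1, a guanine nucleotide exchange factor, by 1.04, and Btk, a kinase that phosphorylates PLCG2, by 0.81. Fgr, an SRC-family kinase gene, held 0.733 to 3.00 CPM in the controls and 0.0178 to 0.409 CPM in the knockouts (-2.79). Syk and Inpp5d, the phosphatase SHIP1, fell in the pooled comparison (-0.51 and -0.69) but were not called in Trem2KO against WT (-0.06 and -0.14). Both were higher in Plcg2HET than in WT, by 0.58 and 0.69. Grb2, Sirpa, Prkcb, Itpr2, Vav3, Pik3cd, Nfatc2 and Siglece were not called.

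Inflammatory and antigen-presentation lists shifted downward in the pooled comparison. Lower genes numbered 5 of 13 chemokines, 18 of 30 Toll-like receptor and cytokine genes, 8 of 16 complement genes, 12 of 14 MHC class I genes, 9 of 10 MHC class II genes and 22 of 30 interferon-response genes, with 0 higher in each of these 6 lists, against 8.31% lower and 5.72% higher over all tested genes. Tlr2, a receptor of bacterial lipoproteins and aggregated proteins, ran from 3.58 to 10.4 CPM in the controls and from 0.998 to 3.09 CPM in the knockouts (-1.73), and its co-receptor gene Cd14 from 8.75 to 24.7 CPM and from 2.12 to 6.07 CPM (-1.65). Nlrp3, an inflammasome sensor, fell by 1.01, and Il1b (-0.25) and Tlr4 (-0.21) were not called. B2m, the light chain of MHC class I, fell by 0.73, its span overlapping Patl2. Values of MHC genes are uncertain because near-identical members can share reads.

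Few interferon genes were called in each of the 4 single comparisons. Of the 22 that were lower, 4 were lower in all 4 comparisons. Of the 30 genes, 9 were lower in Trem2KO against WT and 14 in Trem2KO against Plcg2HET. Plcg2KO was lower in 20 against WT and in 23 against Plcg2HET. Over all tested genes the lower shares were 8.16%, 9.28%, 7.63% and 20.2% in the same order. Oas1a, an antiviral enzyme gene, fell by 1.32 in the pooled comparison and stood at -0.68 in Trem2KO against WT, not called. Trim30a and Rtp4 fell in each of the 4, by 0.82 to 1.37 and by 0.82 to 0.84.

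Lysosomal and phagosomal genes were split. Of 39 genes, 26 were lower (8.31% over all tested genes) and 1, the proton pump subunit Atp6v1a, higher (0.32). Atp6v0d2, a pump subunit of osteoclasts and macrophages, stood at 0.311 to 1.39 CPM in the controls and at 0 to 0.103 CPM in the knockouts (-4.62), and Cybb, the NADPH oxidase subunit, at 1.75 to 7.49 CPM and 0.998 to 1.81 CPM (-1.79). Cd68, a lysosomal membrane glycoprotein of macrophages, fell by 1.40 (SE 0.12, edgeR adjusted p = 2.02e-09), while the broadly expressed Lamp1 (-0.07), Psap (0.16) and Npc1 (0.15) were not called. Lipid-handling genes gave 3 lower and 3 higher of 32. The lower ones included Gpnmb (-1.71) and Ch25h (-1.89), and the higher ones included the cholesterol exporter Abca1 (0.48) and the lipoprotein receptor gene Lrp1 (0.34).

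**Figure D3:**
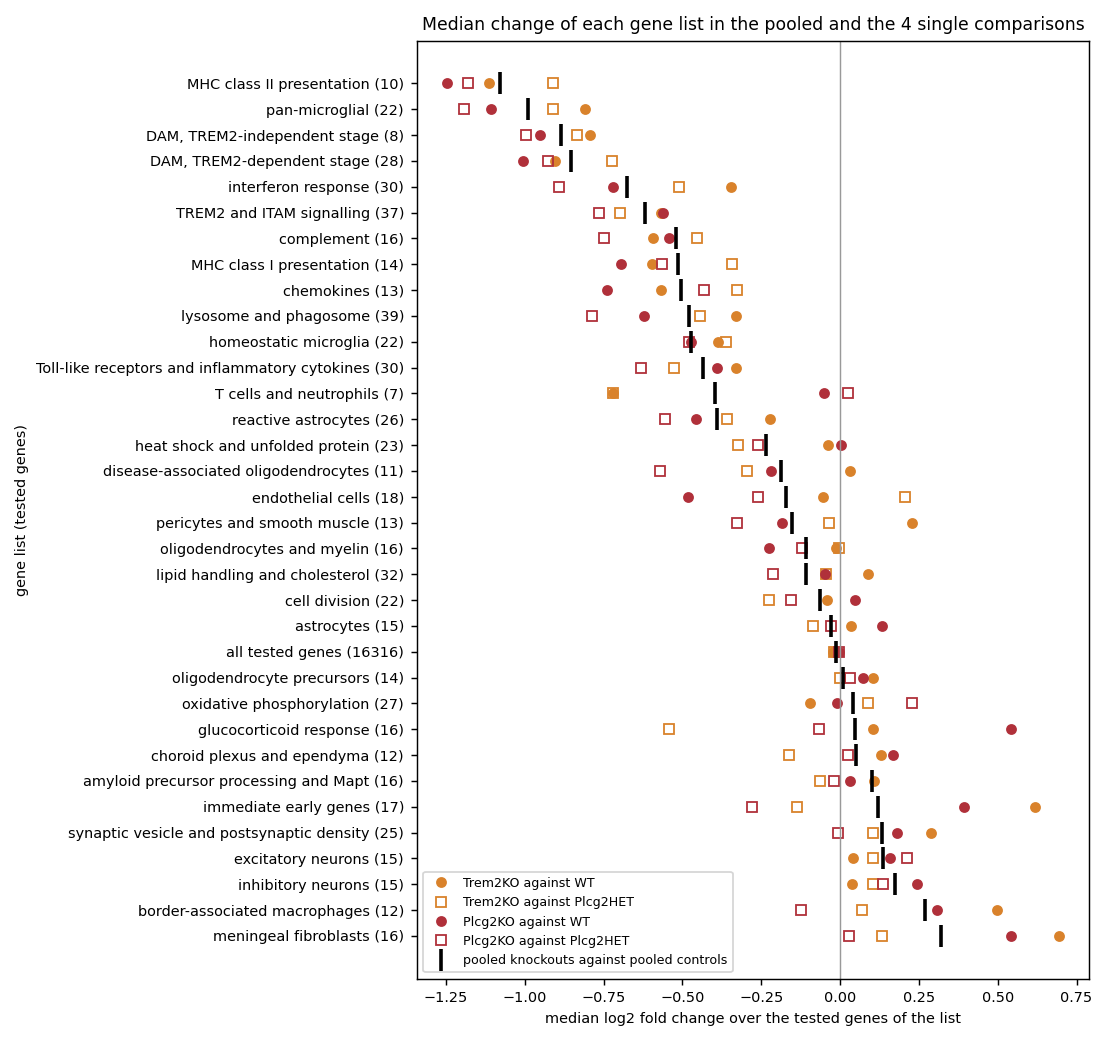
Each row is a gene list with its number of tested genes, and the horizontal axis is the median log2 fold change of the list (bars, pooled comparison; circles, against WT; squares, against Plcg2HET; orange, Trem2KO; red, Plcg2KO). Microglial lists lie left of 0 in all 5 comparisons, while immediate early and glucocorticoid genes lie right of 0 against WT and left of it against Plcg2HET.

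Genes of other cell types changed in smaller numbers. Their pooled counts are read against 8.31% lower and 5.72% higher over all tested genes. A list with 1 call of 12 or more genes is near that background. Reactive astrocyte genes were lower for 12 of 26 and higher for 2, and 1 of them, Cd14, was lower in all 4 comparisons. Of the lower genes, Cd14, Ctsb, C3 and Gbp2 also stand in the Toll-like receptor, DAM, complement and interferon lists. Which cell type their decrease came from was not tested. Gfap, the astrocyte filament gene, ran from 733 to 3780 CPM in the controls and from 301 to 1783 CPM in the knockouts (-0.93). It was not called in Trem2KO against WT (-0.22) and fell by 0.85, 1.08 and 1.71 in the other 3 comparisons. Astrocyte identity genes gave 2 higher of 15 (Slc1a3, a glutamate transporter, 0.39, and Slc4a4, 0.50), and oligodendrocyte genes gave 1 higher of 16 (Mal, 0.33, edgeR adjusted p = 0.0294). The Mal call held with 18 of the 24 libraries left out in turn, and it was lost with the replicate block (adjusted p = 0.101) and with Trem2KO as the only knockout (0.02, adjusted p = 0.931). Disease-associated oligodendrocyte genes gave 3 lower of 11 (Cd9, Anxa5 and Serpina3n), and 0 of the 11 were lower in all 4 comparisons. Cd9 also stands in the DAM list and Serpina3n in the reactive astrocyte list. With WT as the only control, Serpina3n lost its call (-0.57, edgeR adjusted p = 0.0536), and Cd9 and Anxa5 kept theirs. Oligodendrocyte precursor genes gave 1 lower and 3 higher of 14, endothelial genes 1 lower of 18 (Cldn5, -0.52) and pericyte and smooth muscle genes 1 lower and 1 higher of 13. The groups disagreed in the endothelial genes. Of the 18, Plcg2KO was lower in 9 against WT, 6 against Plcg2HET and 7 against Trem2KO. Over all tested genes these shares were 7.63%, 20.2% and 8.82%. Trem2KO was lower in 0 against WT and 2 against Plcg2HET, where 8.16% and 9.28% of all tested genes were lower. The summed level of the list was 267 to 315 CPM in Plcg2KO, 322 to 453 CPM in Trem2KO and 300 to 462 CPM in WT. It was 413 to 477 CPM in Plcg2HET M1, M2, F1 and F3, and 253 and 265 CPM in Plcg2HET M3 and F2. Plcg2HET M3 and F2 had negative GC trends, as all Plcg2KO libraries did. The part of library trends in the endothelial calls was not tested. Cldn5 was not called with Trem2KO as the only knockout (-0.23, edgeR adjusted p = 0.49) or with the replicate block (-0.50, adjusted p = 0.0502). Choroid plexus and ependymal genes gave 1 higher of 12 (Kl), and T cell and neutrophil genes 1 higher of 7 (S100a9, at most 0.720 CPM), with Cd3e at a mean of 0.245 CPM in the controls and 0.178 CPM in the knockouts. The S100a9 call (1.87, edgeR adjusted p = 0.0181) was lost without Plcg2KO F2 (1.35, adjusted p = 0.0701) and with the replicate block (1.78, adjusted p = 0.0595).

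Neuronal and general lists had medians between -0.24 and 0.17 in the pooled comparison, and the called neuronal genes were higher. Excitatory neuron genes gave 2 higher of 15, inhibitory neuron genes 5 of 15 and synaptic genes 4 of 25, with 0 lower in each. Over all tested genes, 5.72% were higher and 8.31% lower. Of the 2 excitatory calls, Grin2a kept its call in 11 of 24 fits with 1 library left out. Slc17a6 lost its call with WT as the only control (0.26, edgeR adjusted p = 0.125) and without the Rn45s-rich libraries (0.36, edgeR adjusted p = 0.0567). Oxidative phosphorylation genes gave 0 calls among 27, cell division genes 6 lower and 1 higher of 22, and heat shock and unfolded-protein genes 6 lower and 1 higher of 23. Among 16 genes of amyloid precursor processing, App was higher (0.30, SE 0.07, edgeR adjusted p = 0.00388) and Thy1, whose promoter drives the 5xFAD transgenes, was lower (-0.27, SE 0.08, edgeR adjusted p = 0.0237). The Thy1 call was lost with GC and length offsets (-0.17, adjusted p = 0.129), without the Rn45s-rich libraries (-0.26, adjusted p = 0.0794) and with WT as the only control (-0.17, adjusted p = 0.218). App ran from 1621 to 2492 CPM in the controls and from 2241 to 2780 CPM in the knockouts, and the states overlapped. The part of reads from the human APP transgene in these counts was not tested.

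The 12 largest increases by the same rule were smaller than the 12 decreases. Erbb4, the neuregulin receptor of inhibitory neurons, ran from 3.81 to 8.01 CPM in the controls (median 5.52) and from 8.57 to 15.6 CPM in the knockouts (median 13.1), without overlap (log2 fold change 1.10, SE 0.12, edgeR adjusted p = 6.43e-08). Pclo, a scaffold protein of the presynaptic active zone, ran from 96.4 to 167 CPM and from 209 to 355 CPM, also without overlap (0.94, SE 0.09, edgeR adjusted p = 1.90e-08). Fmn2, an actin nucleator, and Pcdhga8, a clustered protocadherin, were separated too, at 30.4 to 56.3 against 64.3 to 96.0 CPM and at 7.32 to 12.7 against 13.0 to 21.1 CPM. Trip11, a Golgi protein (1.03), Aff2 (0.95), the potassium channel gene Kcnh7 (0.84), the integrin gene Itgb8 (0.83), the cation channel gene Trpm3 (0.81) and Pcdhgb1 (0.75) were also among the 12, and their states overlapped in at least 1 library. The gamma protocadherin genes share exons and overlap one another, so reads could not be assigned to single members with certainty.

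Library trends with GC content and length were set beside the pooled fold changes of all tested genes. Pooled fold changes had a rank correlation across genes of -0.23 with GC content and 0.18 with summed exon length, and genes are not independent replicates. With offsets that remove each library's trends with GC content and length, 24 of the 24 leading genes kept their direction and call, and 1600 genes were higher and 2087 lower. Without the 3 Rn45s-rich controls, 24 of 24 again kept their calls, though these 24 were chosen as large changes in these same libraries. The genes higher in all 4 comparisons went from 88 to 37 and the genes lower in all 4 from 370 to 256. The part of RNA quality in the other calls was not tested.

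**Figure D4:**
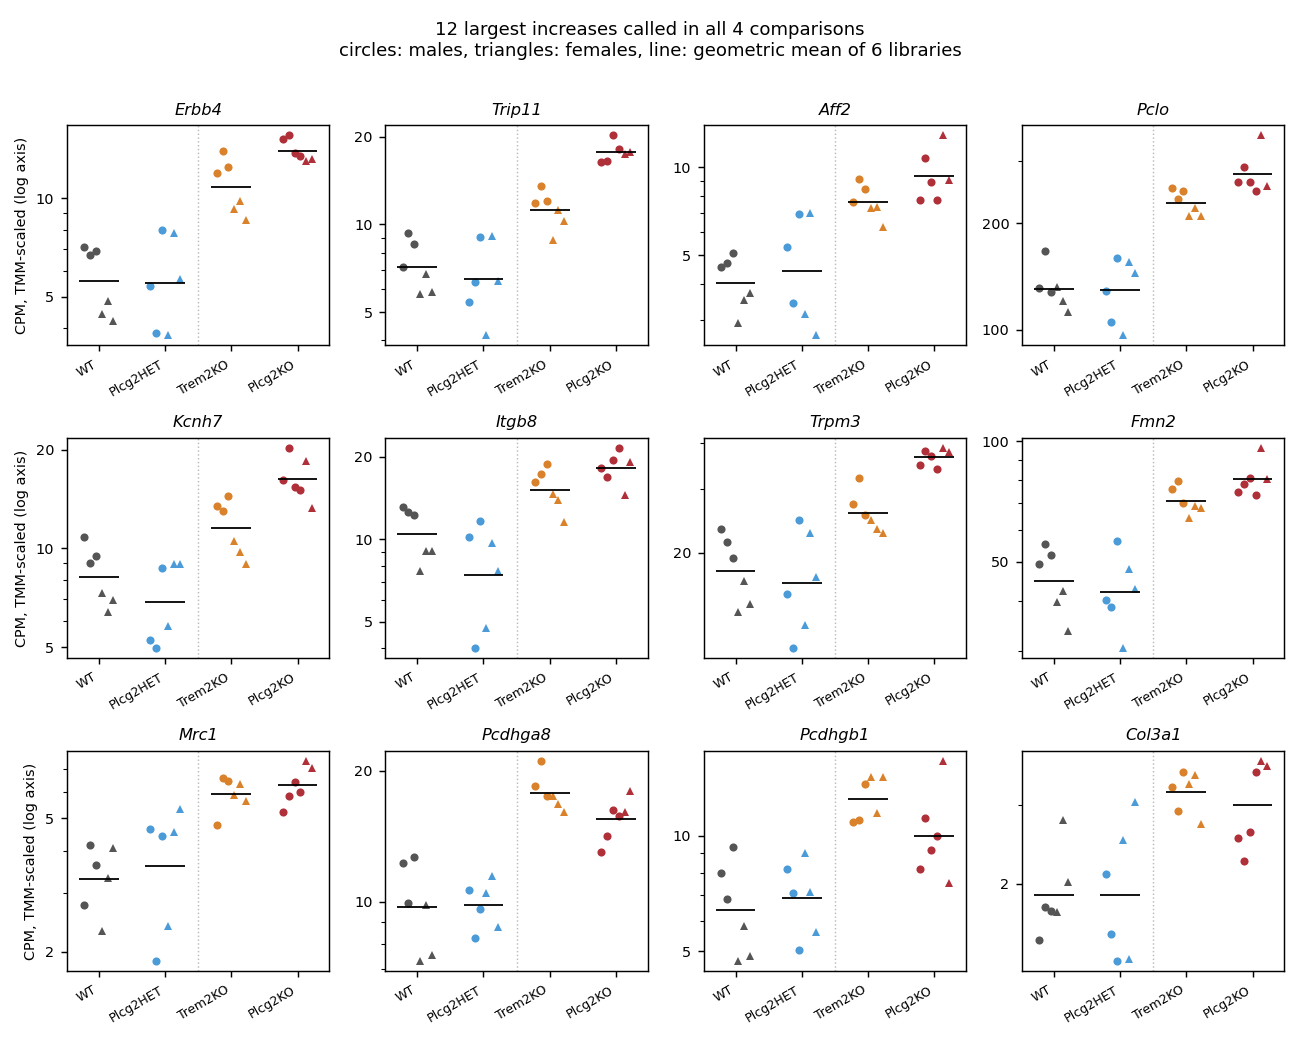
Each panel shows 1 of the 12 largest increases called in all 4 comparisons, in CPM on a log axis, for the 6 libraries of each genotype (circles, males; triangles, females; line, geometric mean). Erbb4, Pclo, Fmn2 and Pcdhga8 are separated between 12 knockout and 12 control libraries, and the other 8 panels overlap.

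The last of the 12 increases were Mrc1 and Col3a1. Mrc1, a mannose receptor of border-associated macrophages (its span overlaps Mir511), ran from 1.88 to 5.32 CPM in the controls and from 4.78 to 7.41 CPM in the knockouts (0.77), and Col3a1, a fibrillar collagen gene, from 1.34 to 3.04 CPM and from 2.25 to 3.77 CPM (0.73). Of 12 border-associated macrophage genes, Mrc1 was the 1 called, and Cd163 (0.41), Pf4 (0.48) and Lyve1 (0.25) were not. Of 16 meningeal fibroblast genes, 8 were higher and 0 lower, with a median of 0.32. Against WT, 12 of the 16 were higher in each knockout. Against Plcg2HET, 2 were higher in Trem2KO and 4 in Plcg2KO, with 2 lower in Plcg2KO. Over all tested genes, 6.27% were higher in Trem2KO and 15% in Plcg2KO against Plcg2HET. Plcg2HET itself was higher than WT in 11 of the 16. The summed level of the list was 208 to 274 CPM in WT, 297 to 385 CPM in the knockouts, 325 to 416 CPM in Plcg2HET M1, M2, F1 and F3, and 269 and 277 CPM in Plcg2HET M3 and F2. These are the Plcg2HET libraries that stood apart in GC trend, and how much meningeal tissue each dissection held was not tested.

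The control groups differed from each other in activity and stress genes. Plcg2HET differed from WT in 2936 genes (18%), of which 1772 (10.9%) were higher and 1164 (7.13%) lower. Of 17 immediate early genes, 0 were called in the pooled comparison. Against WT, 11 were higher in Trem2KO and 5 in Plcg2KO, while 2 and 4 were lower against Plcg2HET. Over all tested genes, 7.56% and 5.44% were higher against WT, and 9.28% and 20.2% were lower against Plcg2HET. Egr1, an activity-induced transcription factor, ran from 270 to 433 CPM in WT, 506 to 746 CPM in Plcg2HET, 311 to 545 CPM in Trem2KO and 370 to 686 CPM in Plcg2KO. WT and Plcg2HET did not overlap, and both knockouts lay across the gap between them. Of 16 glucocorticoid-response genes, 0 were called in the pooled comparison, 13 were higher in Plcg2KO against WT and 10 were lower in Trem2KO against Plcg2HET, with 12 higher in Plcg2HET than in WT. Sgk1, a glucocorticoid-induced kinase, ran from 60.0 to 77.1 CPM in WT and from 104 to 179 CPM in Plcg2HET. Of the 23 heat shock and unfolded-protein genes, 12 were lower in each knockout against Plcg2HET, but 2 in Trem2KO and 1 in Plcg2KO against WT, and Plcg2HET was higher than WT in 10.

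Differences inside each state were about as frequent among the pooled decreases as among all tested genes. Of the 1356 pooled decreases, 217 (16%) differed between Plcg2KO and Trem2KO, 232 (17.1%) differed between Plcg2HET and WT, and 951 (70.1%) had neither call, against 69.3% of all tested genes. Among the 370 decreases found in all 4 comparisons, 302 (81.6%) had neither, and among the 88 increases 79 (89.8%). Over all tested genes the same tests called 16.5% for the knockout pair (Plcg2KO above Trem2KO in 7.63% and below it in 8.82%) and 18% for the control pair. A gene without such a call is not shown to be equal in the groups. The 370 and 88 genes were chosen in these same libraries for being called the same way in each knockout against each control group. A difference within a state makes that rule harder to meet, so the 81.6% and 89.8% were largely set by the choice.

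Where the 2 knockouts differed, the lower level was more often in Plcg2KO for the decreases: 156 of the 217 genes were lower there and 61 higher. Itgax stood at 1.38 to 3.93 CPM in Trem2KO and 0.232 to 1.83 CPM in Plcg2KO (log2 difference -1.39, SE 0.22, edgeR adjusted p = 0.000765), which is 10.3% and 3.41% of the control mean. Cst7 differed by -0.99 and St14 by -0.68 in the same direction, while 5031426D15Rik (0.14), Cd74 (-0.07) and Cd52 (-0.05) had no call between the knockouts. Some pooled calls came from 1 knockout. Etnppl, an astrocyte phospholyase gene, was called higher in the pooled comparison (0.80), yet its median was 17.2 CPM in Trem2KO, 49.4 CPM in Plcg2KO and 17.3 CPM in the controls. Luzp2, Mal and Adhfe1 were likewise higher in Plcg2KO than in Trem2KO, by 0.85, 0.60 and 0.56, and Lag3, Bfsp2 and Gpt lower by 1.0, 0.99 and 0.78. Zc3h13, Foxo1, Gpn3 and Hopx were called in the pooled comparison although Plcg2HET and WT differed in them by 0.81, 0.62, -0.64 and -0.74.

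Agreement was also read from comparisons that have no library in common, each fitted on its own 12 libraries. These fits were added after the data had been seen. Each shared percentage is read against the percentage of all genes called in the other comparison. Trem2KO against Plcg2HET called 814 genes lower and Plcg2KO against WT called 1757, and 401 were shared, 49.3% of the first list and 22.8% of the second, where 11.1% and 5.16% of 15778 genes were called in the other comparison. Of the 505 and 1785 higher genes, 139 were shared (27.5% and 7.79%, with backgrounds of 11.3% and 3.2%). In the other pair, Trem2KO against WT called 2240 genes lower and Plcg2KO against Plcg2HET 2066, with 497 shared (22.2% and 24.1%, with backgrounds of 13.1% and 14.2%). Of the 2521 and 1440 higher genes, 239 were shared (9.48% and 16.6%, with backgrounds of 9.13% and 16%). Of the 2521, 443 were lower in the second comparison (17.6%, with a background of 13.1%). The first pair shared genes of both directions above the background, and the second shared decreases above it and increases near it. In the second pair, more increases of Trem2KO against WT were called lower than higher in Plcg2KO against Plcg2HET. Fold changes correlated across genes with a Pearson r of 0.44 in the first pair and 0.20 in the second, as a description.

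**Figure D5:**
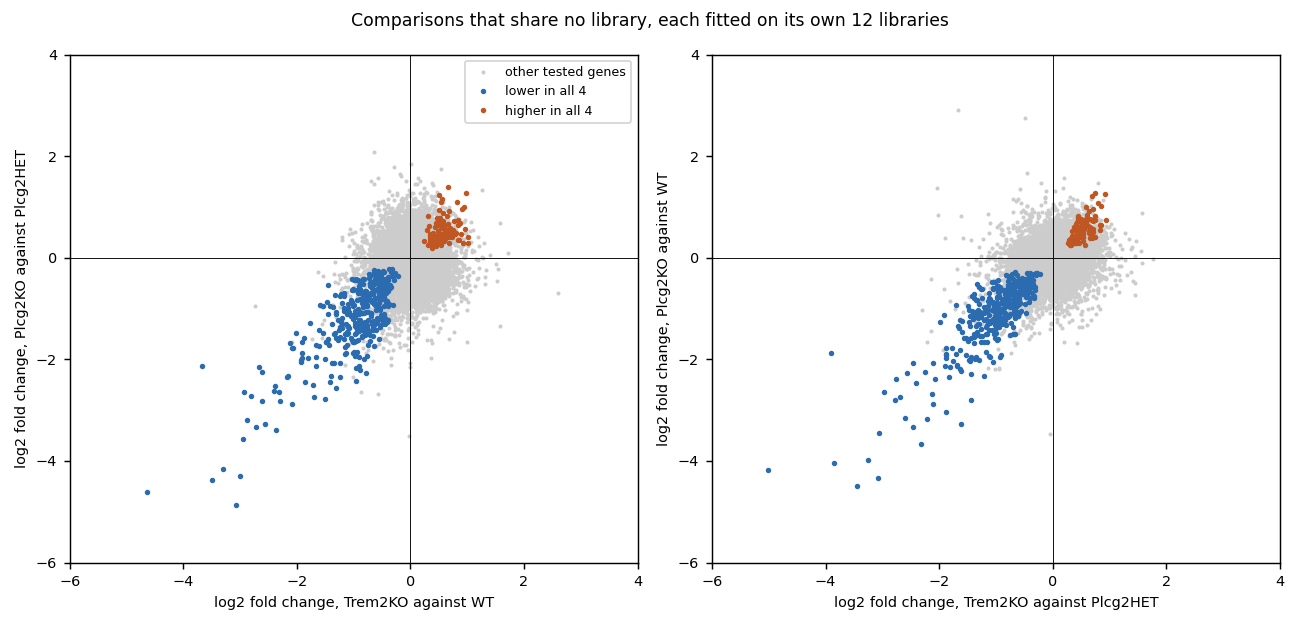
Each point is 1 of 15707 genes, with the log2 fold change of a Trem2KO comparison on the horizontal axis and that of the Plcg2KO comparison with no library in common on the vertical axis. Genes called lower in all 4 comparisons (blue) and higher in all 4 (orange) were chosen by their direction in these same libraries. Their side of 0 on both axes is therefore set by that choice. The blue genes spread farther from 0 than the orange ones.

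Males and females were compared with an interaction of state and sex. With edgeR, 0 of 16316 genes (0%) were called, 271 (1.66%) had an unadjusted p under 0.05, and DESeq2 called 1 gene, Spp1. Spp1, the secreted protein osteopontin, ran from 21.3 to 44.3 CPM in the 6 control females and from 10.4 to 18.4 CPM in the 6 control males, without overlap. In the 12 knockouts it ran from 7.66 to 10.9 CPM. Its log2 fold change was -1.76 in females and -0.56 in males, a male minus female difference of 1.20 in edgeR (SE 0.22, unadjusted p = 7.26e-06, not called) and of 1.19 in DESeq2 (adjusted p = 0.00196). Of the other 4 genes with the smallest interaction p, Ch25h and Lrmp were lower in females by 3.12 and 1.58 and in males by 0.94 (not called) and 0.91, and Fzd5 and Lrrc39 had no call in the pooled comparison.

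Microglial marker level was added as a covariate. With the pan-microglial mean of each library as a term, Itgax (-1.73), Cst7 (-1.11), 5031426D15Rik (-3.22), Ccl6 (-0.99), Cd74 (-1.84), Cd52 (-1.24), Pcdhga8 (0.70) and Col3a1 (1.21) kept their calls among the 24 leading genes. The other 16 lost theirs, among them Clec7a (-0.64, edgeR adjusted p = 0.158), Ccl3 (-1.16, edgeR adjusted p = 0.0847), Capg (-0.11) and Erbb4 (0.16). The states do not overlap in this mean, so this fit extrapolates beyond the measured range, and marker level and state cannot be told apart. That fit called 4100 genes, of which 236 were among the 2289 with the same direction. Genes of the 2289 that it called in the opposite direction are not in the 236.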

How the data were processed

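Bulk cortex RNA of 24 mice was measured as gene counts. The authors deposited raw counts per gene, made with STAR 2.7.10a and featureCounts 2.0.3 on mm10, per the submitters' processing notes. The deposited expected counts, rounded here, served as an alternative. The deposited TPM and FPKM values were not used for tests. The sources used here name neither the strand setting nor the tool behind the expected counts. Of the named genes, 26 of 98 overlap another gene, and their reads cannot be told apart.

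Of 24421 genes, 16316 passed edgeR's filterByExpr (minimum count 10, by genotype). Counts were TMM-scaled and fitted with robust quasi-likelihood (edgeR 4.0.16, limma 3.58.1, R 4.3.3) on state and sex, so genotype differences within a state enter the residual spread. A model of genotype means and sex gave the 4 single comparisons, and an interaction gave the difference between sexes. Genes were called at a Benjamini-Hochberg adjusted p under 0.05. CPM values are TMM-scaled, and list indices are means of log2(CPM + 0.5). The code was tested on simulated data.

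Named genes were the targets, the 12 largest decreases and 12 largest increases called in all 4 comparisons with average log2 CPM of at least 1, the 3 called members of each list with the smallest p, and the genes with the smallest p for Plcg2KO against Trem2KO, Plcg2HET against WT and the interaction. Other list members are given by count or as examples. The members and lists were chosen with earlier results of these data known. The fits on comparisons with no library in common were chosen after seeing the data. Alternatives were other scaling, filters, terms, control or knockout groups, sexes, libraries left out, quantification, GC and length offsets, a pan-microglial term and DESeq2 1.42.0. The labels mark each library as a separate animal code, and p-values measure the spread between these libraries. The pooled test counts each library as a replicate of its state, though each state mixes genotypes. Its p-values therefore take libraries, and not genotypes, as the unit.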

Additional observations from a re-analysis of the deposited data

Results flagged for a closer look

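In 2 of 104 groups of 6 libraries that were examined, 1 library lay far from the other 5, and chance gives about 1 in 20. Pclo stood at 167 CPM in WT M2, against 112 to 132 CPM in the other WT libraries. Fmn2 stood at 96.0 CPM in Plcg2KO F1, against 73.3 to 81.2 CPM in the other Plcg2KO libraries.

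The effects of both knockouts differed in 7 of the leading or targeted genes, by edgeR's quasi-likelihood test of Plcg2KO against Trem2KO. The log2 difference was 1.80 for Trem2 (adjusted p = 3.55e-07), whose own knockout is one of the groups, -1.39 for Itgax (adjusted p = 0.000765), -0.99 for Cst7 (adjusted p = 0.0136) and -0.68 for St14 (adjusted p = 0.0467). Among the increases it was 0.63 for Trip11 (adjusted p = 0.00963), 0.47 for Kcnh7 (adjusted p = 0.0407) and 0.49 for Trpm3 (adjusted p = 0.0306). Spp1 differed between sexes in DESeq2, with a male minus female difference of the state effect of 1.19 (adjusted p = 0.00196), and was not called in edgeR.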

How the results depend on the processing

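The 24 leading genes kept their direction and call under each alternative and each left-out library. The exceptions were Pcdhgb1 in males alone, Col3a1 in females alone and 16 genes with the pan-microglial term. These 24 were chosen as large changes called in all 4 comparisons of these same libraries. Keeping the call with 1 control or 1 knockout group alone was therefore largely set by the choice. Against 2289 called genes (933 higher, 1356 lower), the counts were 1369 (516 and 853) with Trem2KO alone as knockout, 455 (80 and 375) in the males, 681 (174 and 507) in the females, 1409 (516 and 893) without the Rn45s-rich controls, 3687 (1600 and 2087) with GC and length offsets and 4100 (1834 and 2266) with the pan-microglial term. Fewer libraries enter the first 4 of these. Higher genes numbered 1480 with a contrast of genotype means and 1438 with Plcg2HET alone as control. Higher genes made up 40.8% of calls, 17.6% of those in males and 25.6% of those in females. Leaving out 1 library at a time gave 1949 to 2732 called, 784 to 1244 higher and 1144 to 1488 lower. Genes lower in all 4 comparisons numbered 567 with the offsets and 309 to 397 with 1 library left out, against 370. Genes higher in all 4 numbered 37 without the Rn45s-rich controls, 241 with the offsets, 58 without WT F3 and 151 without Plcg2HET F2, against 88. The interaction gave 1 call in DESeq2. Where not stated, the cause was not tested.

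Whether the sex letter and number pair libraries was not settled. Of 33 pairs with the same letter and number, 20 had a correlation over 0.1 (-0.19 to 0.38). Of 24 libraries, 8 correlated best with a library of the same letter and number. Such pairs share their sex, and sex was left in these correlations, so sex and pairing cannot be told apart here. With the sex letter and number as a term (the replicate block), 1718 genes were called (661 higher, 1057 lower). With it, 316 were lower and 66 higher in all 4, and 88 of 98 named genes kept their result, called or not called.

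With the pan-microglial term these log2 values changed sign: Adhfe1 -0.36, Mcm3 0.68, Fmn2 -0.016, Atf3 0.21, Cd68 0.0105, Trip11 -0.20, Serpina3n 1.44, Osmr 0.45, Slc1a3 -0.33, Gpt 1.01, Grin2a -0.0175, Cldn5 0.64, Rtp4 0.16, App -0.092, H2-K1 0.10, Psmb8 0.33, Cd14 0.0445, Trpm3 -0.32, Kcnh7 -0.0598 and Mal -0.23. The same held for Ctsz 0.017, Olfml3 0.16, Etnppl -0.67, Tlr12 0.13, Lhfpl3 -0.28, Pdgfra -0.14, Slc4a4 -0.37, Oas1a 1.37, Gpn3 -0.14, Ptprz1 -0.13, Lag3 0.97, Cd9 0.51, Slc17a6 -0.61, Luzp2 -1.11, Slco2b1 0.23, Ctsd 0.0409, Shank2 -0.13, Thy1 0.20, Bfsp2 1.13 and Aff2 -0.31. Of the genes that changed sign, Mcm3, Serpina3n, Gpt, Oas1a, Lag3, Luzp2 and Bfsp2 were called by edgeR in the opposite direction in that fit. The others were not called in it. With Trem2KO alone as knockout, Etnppl stood at -0.10.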

Other observations

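Other genes without overlap between the 12 knockout and the 12 control libraries were chosen after their values were seen and are given as values. Ctse, the aspartic protease cathepsin E, ran from 0.6 to 3.99 CPM in the controls and from 0 to 0.321 CPM in the knockouts. Hcar2, the niacin and ketone body receptor, ran from 1.17 to 4.97 CPM and from 0.0178 to 0.753 CPM. Pdcd1, the checkpoint receptor PD-1, ran from 0.911 to 5.26 CPM and from 0.0815 to 0.577 CPM. Slc11a1, a phagosomal metal transporter, and Plau, a plasminogen activator, fell by 1.88 and 1.85 on the log2 scale.

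Some genes outside the microglial lists were separated as well. Grin2b, an NMDA receptor subunit gene, ran from 64.8 to 277 CPM in the controls (median 117) and from 42.9 to 53.8 CPM in the knockouts. The noncoding RNA genes Kcnq1ot1, which overlaps Kcnq1, and Ftx fell by 1.52 and 0.95 on the log2 scale. Higher in the knockouts were Nos1, neuronal nitric oxide synthase, at 80.3 to 106 CPM against 34.9 to 79.3 CPM, and Tnr, an extracellular matrix glycoprotein, at 49.7 to 63.0 CPM against 28.0 to 49.1 CPM.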
